A study of Mus musculus with 10 samples.

Results

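Kidney libraries were divided by their own level of Malat1, a long noncoding RNA of the cell nucleus, and the high and low kidneys were then compared across genes. The level was taken as CPM of the column sum, the reads of the gene scaled to a fixed total of counted reads. A kidney above 1000 was called high and a kidney below 500 was called low, which placed 4 of the 10 kidneys in the high group and 6 in the low group. All 4 high kidneys were controls (controls 1, 3, 4 and 5). The low group held the other 2 controls (controls 2 and 6) and all 4 kidneys of the treated mice. Because the kidneys were chosen on a value measured in these same libraries, every difference between high and low kidneys below is a description without a test. Most log2 differences are given over all kidneys and then among the 6 controls alone, where 2 low kidneys remain.

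The mice were males of UM-HET3, a genetically heterogeneous stock. Controls ate the Purina 5LG6 diet, and treated mice ate it with rilmenidine, an antihypertensive drug, at 10 ppm. Treatment ran for 1 month from 3 months of age, and kidneys were taken at 4 months. Each library came from whole kidney tissue, in which fewer cells of a type and less RNA per cell cannot be told apart. The labels' extraction text speaks of liver, but the libraries held kidney transcripts. Kap, an androgen-regulated protein of the proximal tubule, had 31036 to 58838 normalized CPM (CPM after scaling between libraries), and Umod of the thick ascending limb had 898 to 1961. Alb, the main liver transcript, had 0 to 11.8.

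Malat1 lies in nuclear speckles, bodies where splicing factors gather. Its chromosomal neighbour Neat1 is the scaffold of paraspeckles, another nuclear body that holds back RNA. Many genes of splicing regulators keep some of their introns unspliced, and such transcripts with detained introns remain in the nucleus, as do part of the messenger RNAs of several metabolic and chromatin genes. In kidney, as in most adult tissues, Malat1 is among the abundant noncoding RNAs.

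The Malat1 and Neat1 transcripts are shown here because the first chose the groups, the second had the largest log2 difference among genes apart with a mean of at least 20 normalized CPM, and their 3′ ends are alike. Malat1 and the long Neat1 transcript shown are known to end in a genome-encoded stretch rich in A. It folds back on U-rich stretches, in place of a tail added after cleavage. The counts are per gene and do not separate Neat1 transcripts. The 75 bases below are from GENCODE M21 (GRCm38), minus strand, 5′ to 3′, and capitals mark the stretches of at least 10 letters that both transcripts hold.
Malat1, transcript bases 6617 to 6691, chr19:5795982-5796056: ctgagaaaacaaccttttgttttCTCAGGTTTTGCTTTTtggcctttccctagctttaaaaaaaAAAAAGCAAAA
Neat1, transcript bases 20697 to 20771, chr19:5824708-5824782: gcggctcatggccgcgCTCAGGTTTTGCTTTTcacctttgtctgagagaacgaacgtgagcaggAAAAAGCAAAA
The 16-letter stretch was found, on the transcribed strand, in the longest transcripts of 2 of 42462 genes, which were Malat1 and Neat1. The 11-letter stretch was found in 262 (0.617%). The longest run of A in the annotated Malat1 transcript was 12 letters, at bases 6674 to 6685, and in Neat1 it was 7. These matches describe the letters of the transcripts and say nothing of the reads.

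Malat1 (ENSMUSG00000092341; chromosome 19, 5795690 to 5802672) had 1528, 1200, 1479 and 2209 CPM of the column sum in the high kidneys 1, 3, 4 and 5. It had 371 and 284 in controls 2 and 6, and 322, 336, 288 and 390 in rilmenidine kidneys 1 to 4. The lowest high kidney, at 1200, stood 3.08 times above the highest low kidney, at 390, and no kidney lay between the limits of 500 and 1000. These are the values that chose the groups. On the normalized scale used from here on, the mean was 1538 ± 382 (SD, n = 4) in high kidneys and 341 ± 45.2 (SD, n = 6) in low kidneys.

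The 4 high kidneys were also the 4 most shallow libraries. Their total counts ranged from 863605 to 1644042, against 1787638 to 3232063 in the low kidneys, so depth and the Malat1 group cannot be told apart by design. When every library was thinned to 863605 reads, 328 of 8389 genes with enough reads (3.91%) stood apart by the rule given below, against 404 of 10055 (4.02%) before, and 236 were the same. Mitochondrial ribosomal RNA took 1.28 to 3.68% of counts in high kidneys and 0.652 to 4.07% in low kidneys, and olfactory and related receptor genes took 45.7 to 144 CPM and 3.62 to 355 CPM, so that neither separated the groups. Their part in the results below was not tested.

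A gene was called apart when every kidney of one group lay above every kidney of the other in normalized CPM and the group means of log2(normalized CPM + 2) differed by at least 1.5-fold. Of 10055 genes with enough reads, called genes tested below although no p was computed for this split, 404 (4.02%) were apart, 280 (2.78%) of them higher in the high Malat1 kidneys and 124 (1.23%) lower. With CPM of the column sum in place of the normalized values the counts were 435 and 48, so the share of higher genes among those apart moved from 69.3% to 90.1%. Among controls alone, 960 genes (9.55%) were apart, 593 (5.90%) higher in the 4 high kidneys than in the 2 low ones and 367 (3.65%) lower. Between the high controls and the rilmenidine kidneys, 530 (5.27%) were apart, 356 (3.54%) higher in the high controls and 174 (1.73%) lower. Between the low controls and the rilmenidine kidneys, which are all low in Malat1, 209 (2.08%) were apart, 105 (1.04%) higher in the controls and 104 (1.03%) lower. These comparisons share kidneys, and with fewer kidneys a gene stands apart more easily. A gene apart over all kidneys cannot overlap between high and low controls, so its difference among controls is not a separate check. The 12 genes named for large differences in each direction were ranked by the smaller of their differences against low controls and against rilmenidine kidneys. The median difference over all genes was −0.01 on the log2 scale in the whole comparison and −0.01 among controls.

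**Figure D1:**
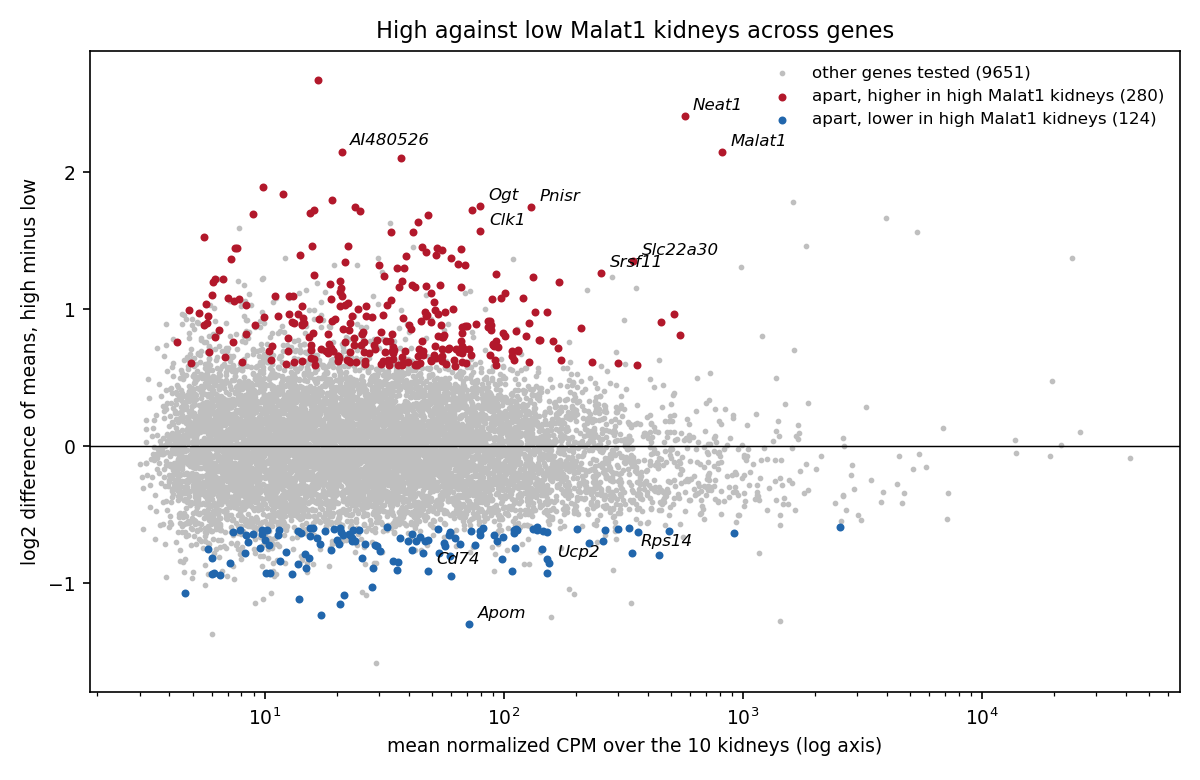
Log2 difference of group means, high minus low Malat1 kidneys (vertical axis), against mean normalized CPM over the 10 kidneys (log axis) for 10055 genes. Red points are the 280 genes apart and higher in high kidneys, blue points the 124 apart and lower, and gray points the rest. Malat1 and Neat1 stand above 2 at high levels, and Apom at −1.30 is the lowest of the labelled genes.

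Neat1 (ENSMUSG00000092274; chromosome 19, 5824708 to 5845478) was apart and higher in the high kidneys. Its normalized CPM were 528, 1408, 1251 and 1318 in high kidneys 1, 3, 4 and 5. They were 205 and 290 in controls 2 and 6 and 161, 221, 154 and 177 in rilmenidine kidneys 1 to 4. Every high kidney lay above every low kidney, control 1 stood well below the other 3 high kidneys, control 2 lay within the range of the treated kidneys and control 6 above it. The log2 difference was 2.41 (standard error 0.36) over all kidneys, 2.10 (0.42) among controls, and 0.46 between low controls and rilmenidine kidneys.

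Other noncoding RNAs stood apart on both sides, more of them higher. Malat1 itself, which chose the groups, is left out of these counts. Of 70 other long intergenic noncoding genes tested, 9 were higher and 0 lower, of 53 genes annotated as processed transcripts 11 were higher and 0 lower, and of 63 antisense genes 3 were higher and 2 lower, Zbtb11os1 and Gm4285, beside 247 higher and 113 lower of 9650 protein-coding genes. AI480526 (chromosome 5, 123133723 to 123141666), a noncoding gene, had 24.4, 37.7, 41.1 and 62.8 normalized CPM in high kidneys 1, 3, 4 and 5. It had 7.10 and 7.70 in the low controls and 5.90 to 8.02 with rilmenidine. The low controls thus lay inside the range of the treated kidneys, and the log2 difference was 2.15 over all kidneys and 2.14 among controls. Snhg20, a host gene of a small nucleolar RNA, had 27.7 to 62.8 in high kidneys, 7.70 and 14.8 in low controls and 8.02 to 13.9 with rilmenidine, a log2 difference of 1.74 and of 1.76 among controls. Snhg11, which has the same kind of name but is annotated as protein-coding, differed by 1.68 and 1.53.

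Of 13 nuclear noncoding RNAs listed by hand, 9 had enough reads. Besides Malat1, which was bound to be apart, 4 of the other 8 (Neat1, Tug1, Firre and Ftx) were apart and higher, beside 2.78% of all genes, and 0 were lower. Tug1, a noncoding RNA of the nucleus and cytoplasm, had 18.8 to 22.8 normalized CPM in high and 7.70 to 15.4 in low kidneys, a log2 difference of 0.94 and of 0.81 among controls. Firre, which is transcribed from the X chromosome and binds chromatin, had 14.4 to 23.4 against 1.78 to 5.39 (1.89 and 1.97). Ftx, a gene of the X inactivation center, had 8.87 to 17.6 against 1.92 to 7.51 (1.45 and 1.84). Kcnq1ot1, the antisense RNA of the Kcnq1 imprinted domain, overlapped between groups at 56.5 to 128 and 23.5 to 89.5, and its reads cannot be separated from Kcnq1 without the strand setting of the counting. The same limit holds for Tug1, which overlaps Morc2a on the other strand, and for Ftx, which overlaps Jpx. It also holds for AI480526 above, which overlaps 4932422M17Rik. Coding genes below that overlap a gene on the other strand, such as Prpf39, Son, Ucp2, Rps14 and Cryab, share this limit. The median over the 8 genes without Malat1 was 1.03 on the log2 scale, 1.03 among controls and −0.06 between low controls and rilmenidine kidneys. Meg3 and Rian, also on the list, had 0 reads in every kidney.

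**Figure D2:**
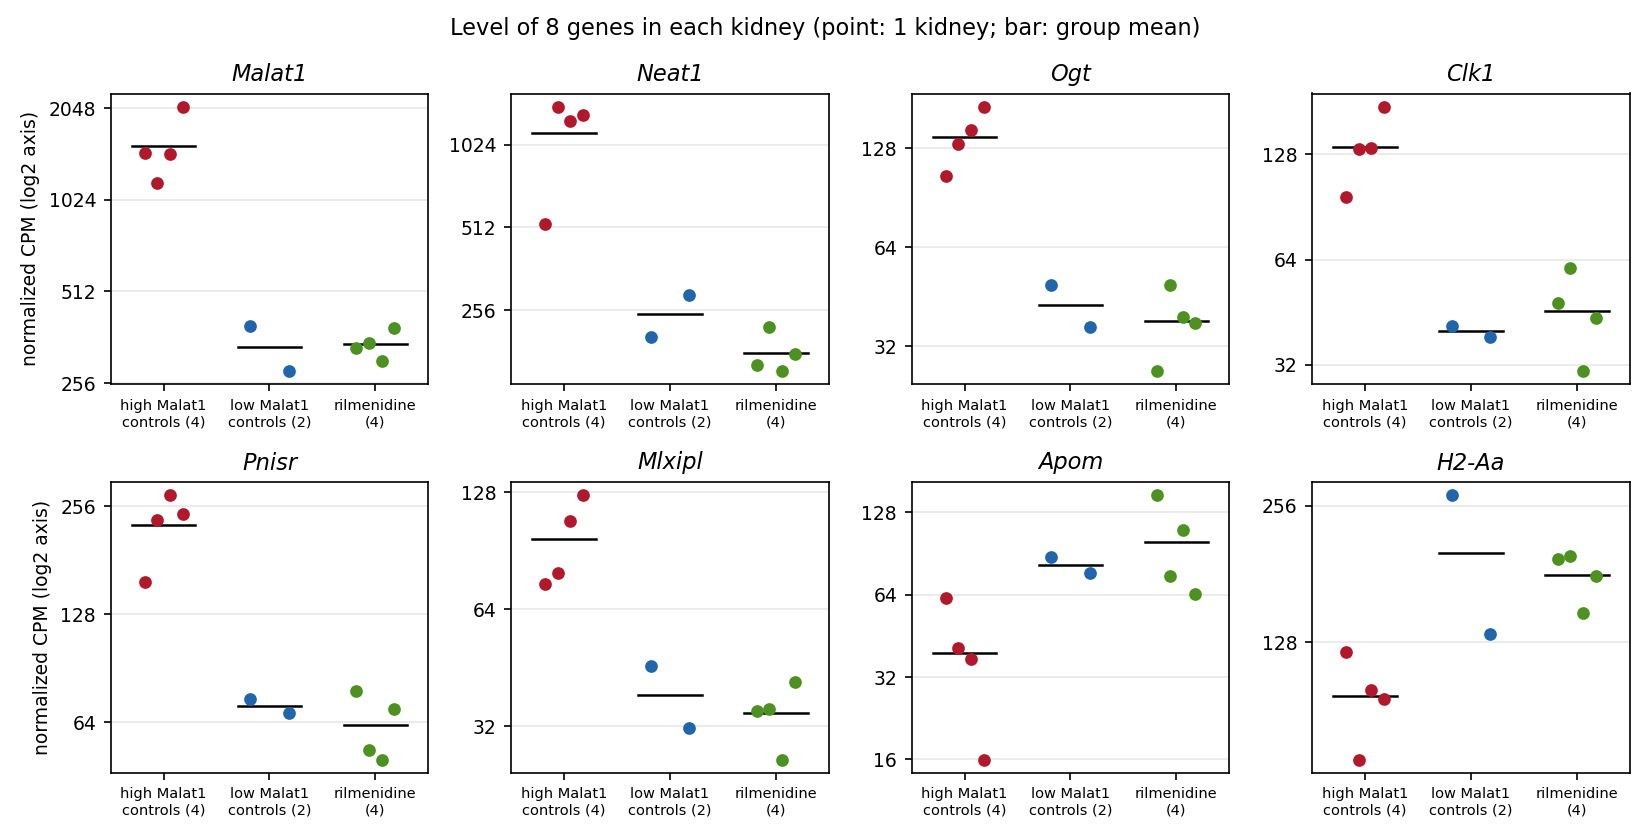
Normalized CPM (log2 axis) of Malat1, Neat1, Ogt, Clk1, Pnisr, Mlxipl, Apom and H2-Aa in each kidney, by group: 4 high Malat1 controls (red), 2 low Malat1 controls (blue) and 4 rilmenidine kidneys (green). Points are kidneys and bars are group means; in the first 6 panels all red points lie above all others, and in the last 2 all lie below.

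Protein-coding genes with large differences are given next. Ogt (chromosome X, 101640060 to 101684351) encodes the enzyme that adds N-acetylglucosamine to nuclear and cytoplasmic proteins, and its transcript is known to keep an intron that leaves it in the nucleus. It had 105, 132, 145 and 171 normalized CPM in high kidneys 1, 3, 4 and 5. It had 49.1 and 36.6 in controls 2 and 6, and 26.9, 49.3, 39.4 and 37.6 with rilmenidine. The high kidneys did not overlap the others, while the low controls lay within the treated range. The difference was 3.37-fold over all kidneys (log2 1.75, standard error 0.19) and 3.12-fold among controls.

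Clk1, a kinase that phosphorylates the SR proteins of splicing, had 96.4, 132, 133 and 175 normalized CPM in high kidneys 1, 3, 4 and 5. It had 41.4 and 38.5 in the low controls and 30.7 to 60.6 with rilmenidine, for log2 differences of 1.57 over all kidneys and 1.67 among controls. Pnisr, a protein that interacts with splicing factors, had 157, 234, 274 and 243 in the high kidneys, 74.6 and 67.8 in low controls and 50.4 to 78.4 with rilmenidine (log2 1.75 and 1.62). In both genes control 1 was the lowest of the high kidneys and no low kidney reached it. Prpf39, a component of the U1 small nuclear ribonucleoprotein, differed by 1.56 and 1.55. Wsb1, a subunit of a ubiquitin ligase, differed by 1.72 and 1.45, Snx29, a sorting nexin, by 1.57 and 1.55, and Crebzf, a transcription factor, by 1.45 and 1.42. Each was apart in all 10 kidneys.

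Genes with detained introns, together with the speckle-linked cyclins Ccnl1 and Ccnl2, were the list with the most members apart. All 19 listed genes had enough reads and 16 (84.2%) were apart and higher, 0 lower, beside 2.78% of all genes. Like the other lists, this one was chosen with earlier results of these data known. Its share is therefore a description and not independent support. Among controls 17 were apart and higher, beside 5.90%. Their summed level was 2272 to 2994 normalized CPM in high kidneys, 1314 to 1379 in low controls and 1159 to 1296 with rilmenidine. No high kidney overlapped the low ones, and the low controls lay above the treated kidneys by a small margin. The median log2 difference was 1.08 over all kidneys, 1.05 among controls and 0.10 between low controls and rilmenidine kidneys, beside −0.01 over all genes. Examples are Ddx5, an RNA helicase, at 629 to 769 in high and 325 to 418 in low kidneys (log2 0.97, and 0.91 among controls), and Luc7l3, a U1-associated splicing protein, at 216 to 283 and 94.9 to 130 (1.13 among controls). The 3 members that were not apart over all kidneys were Clk2 (6.60 to 23.8 against 5.55 to 14.5), Clk4 (28.8 to 58.2 against 14.9 to 31.6) and Tra2b (57.1 to 67.6 against 42.4 to 72.8). Clk2 and Clk4 are kinases related to Clk1, and Tra2b is a splicing activator.

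Proteins that make up or bind the spliceosome split into genes that differed and genes that did not. Of 28 SR proteins and hnRNPs tested, 9 (32.1%) were apart and higher and 0 lower, beside 2.78% of all genes, with a median of 0.38 on the log2 scale and 0.32 among controls. Srsf11 had 281 to 510 normalized CPM in high and 131 to 182 in low kidneys (1.26 and 1.27). Son, a large protein at the core of nuclear speckles, had 339 to 406 against 228 to 291 (0.60 and 0.63). The abundant Hnrnpk had 307 to 359 against 291 to 357, and Hnrnpc had 296 to 348 against 292 to 354, so both overlapped almost fully. Among 8 paraspeckle proteins, Tardbp alone was apart, with 141 to 244 against 89.0 to 105 (0.98 and 0.99), and the median of the 8 was 0.29 and 0.28. Sfpq, which paraspeckles need to form, had 91.8 to 135 against 49.2 to 110.5 (0.55 and 0.28).

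A list of messenger RNAs of chromatin and transcription regulators was put together by hand as held in the nucleus. Their place in the cell was not measured here. Of the 16 tested members, 4 (25%) were apart and higher and 0 lower, beside 2.78% of all genes. Mlxipl, which encodes the carbohydrate-responsive factor ChREBP and whose transcript is known to stay in the nucleus of liver cells, had 74.3, 79.5, 108 and 126 normalized CPM in high kidneys 1, 3, 4 and 5. It had 45.6 and 31.6 in controls 2 and 6 and 26.3 to 41.6 with rilmenidine. The high kidneys lay above all others, by 1.37 on the log2 scale and by 1.27 among controls. Kmt2d, a histone methyltransferase, had 38.9 to 47.4 in high kidneys and 6.30 to 18.5 in low kidneys (1.72 and 1.39). Atrx and Kmt2c were the other two. All 16 genes had a difference above 0, with a median of 0.47 and of 0.42 among controls. Genes named Zfp, most of which encode C2H2 zinc finger proteins, had a median of 0.22 over 196 genes (0.24 among controls), with 11 (5.61%) apart and higher and 1 (0.510%) lower, beside 2.78% and 1.23% of all genes.

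On the lower side the differences were smaller. Apom (chromosome 17, 35128997 to 35132050), the apolipoprotein that carries sphingosine-1-phosphate and is made in the tubule, had 62.1, 41.0, 37.4 and 16.0 normalized CPM in high kidneys 1, 3, 4 and 5. It had 87.6 and 76.6 in controls 2 and 6 and 148, 75.1, 111 and 64.1 in rilmenidine kidneys 1 to 4. The groups nearly touched, since control 1 lay only just under rilmenidine 4. The log2 difference was −1.30 (standard error 0.42) over all kidneys and −1.17 (0.39) among controls. Some of the others named act in mitochondria, but the share of such genes among all genes tested was not counted. Ucp2, a carrier of the inner membrane, had 86.6 to 131 against 144 to 265, a difference of −0.85 and of −0.88 among controls. Bola1, which takes part in iron-sulfur metabolism, differed by −1.15 and −0.91, Nme4, a nucleoside diphosphate kinase, by −0.91 and −0.96, and Apopt1, an assembly factor of cytochrome oxidase, by −1.09 and −1.01. Chmp4b, a subunit of the ESCRT machinery, differed by −0.82 and −0.89, Acyp1, an acylphosphatase, by −0.84 and −0.93, and Ces2e, a carboxylesterase, by −0.81 and −0.89.

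The cytosolic ribosomal protein genes had a median of −0.40 over 58 genes tested (−0.35 among controls, −0.08 between low controls and rilmenidine kidneys), and 5 of them (8.62%) were apart and lower, beside 1.23% of all genes, and 0 higher. Their summed level was 5870 to 7389 normalized CPM in high kidneys and 8211 to 9748 in low kidneys. Rps14 had 214 to 283 against 348 to 473 (−0.78 and −0.68). Reads of such genes can be shared with processed pseudogenes, of which 9 of 112 were apart and lower and 0 higher. Mitochondrial ribosomal protein genes had a median of −0.31 over 70 genes (−0.28 among controls) with 3 (4.29%) apart and lower. Nuclear-encoded genes of oxidative phosphorylation had a median of −0.33 over 75 genes (−0.32 among controls) with 2 apart and lower, Sdhb and Ndufs8, or 2.67% beside 1.23% of all genes. Sdhb, the iron-sulfur subunit of succinate dehydrogenase, had 329 to 419 against 477 to 623 (−0.62 and −0.58). The 965 protein-coding genes with the shortest transcripts, described below, had a median of −0.30, with 51 (5.28%) apart and lower. The longest transcripts of Rps14 (987 nt) and Sdhb (1232 nt) are as short as those. The part of transcript length in the values of these lists was not tested. The mitochondrially encoded genes overlapped, at a median of −0.02 over 8 genes (0.14 among controls) with 0 apart, and the 36 proteasome genes had a median of −0.19 (−0.19 among controls) with 0 apart, and 3 apart and lower among controls, beside 3.65% of all genes.

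Of 12 immune marker genes 8 had enough reads, and 3 of these were apart and lower in the high kidneys, beside 1.23% of all genes. H2-Aa, a chain of the class II antigen-presenting complex, had 122, 70.5, 100 and 95.9 normalized CPM in high kidneys 1, 3, 4 and 5. It had 270 and 133 in controls 2 and 6 and 195, 198, 148 and 179 with rilmenidine. Control 2 was the highest kidney, control 6 was close to the high group, and the difference was −0.92 over all kidneys and −0.98 among controls. The other members apart were Cd74, the invariant chain of the same complex (−0.91 and −1.16), and C1qb, a complement protein of macrophages (−0.93 and −1.43). H2-Eb1 and Ctss, another class II chain and the protease that trims the invariant chain, stand outside the list and were apart as well. H2-Eb1 differed by −0.94 and −1.28 among controls, and Ctss by −0.89 and −1.12. The summed level of the immune list was 213 to 354 in high and 403 to 765 in low kidneys. The median of the list was −0.81, among controls −0.96 and, without control 2, −0.65. Cd79a of B cells had 0 reads in every kidney and Cd3e of T cells at most 8. The hemoglobin genes led the blood list, whose summed level was 1026 to 3265 in high and 2738 to 8757 in low kidneys, with control 2 the highest, 0 of 5 genes apart and a median of −0.90 (−1.29 among controls).

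Over all 10 kidneys no gene was apart, in either direction, among the 15 tested genes of proximal tubule segments S1 and S2, 9 of S3, 9 of the thick ascending limb, 9 of the distal convoluted tubule, 9 of principal cells, 9 of intercalated cells, 8 of podocytes, 10 of endothelium and 9 of fibroblasts and mural cells. Their medians lay between −0.23 and 0.16. Among controls alone, 5.90% of all genes were apart and higher in high kidneys and 3.65% lower. From these lists, 4 of the S3 genes (Slc7a13, Slc22a19, Cyp7b1 and Atp11a) and Slc12a1 of the thick ascending limb were apart and higher. Emx1 and Pvalb of the distal convoluted tubule, Plvap of endothelium and Col1a1 of fibroblasts were apart and lower. Slc34a1, the phosphate transporter of the proximal tubule, had 5175 to 6071 normalized CPM in high and 5018 to 6922 in low kidneys. The S3 list differed between ways of comparing, at 0.03 over all kidneys, 0.55 among controls and −0.41 between low controls and rilmenidine kidneys. Slc7a13, an amino acid transporter of S3, had 790 to 932 in high kidneys, 407 and 592 in low controls and 476 to 905 with rilmenidine. A list of tubular injury genes had 0 of 6 tested apart and a median of −0.33. Among controls the median was −0.43, with 1 apart and lower, beside 3.65% of all genes. Its summed level was 286 to 320 in high and 336 to 498 in low kidneys, without overlap. Adrenal and urothelial marker genes had too few reads in every group to pass the filter, and their part in the results was not tested.

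**Figure D3:**
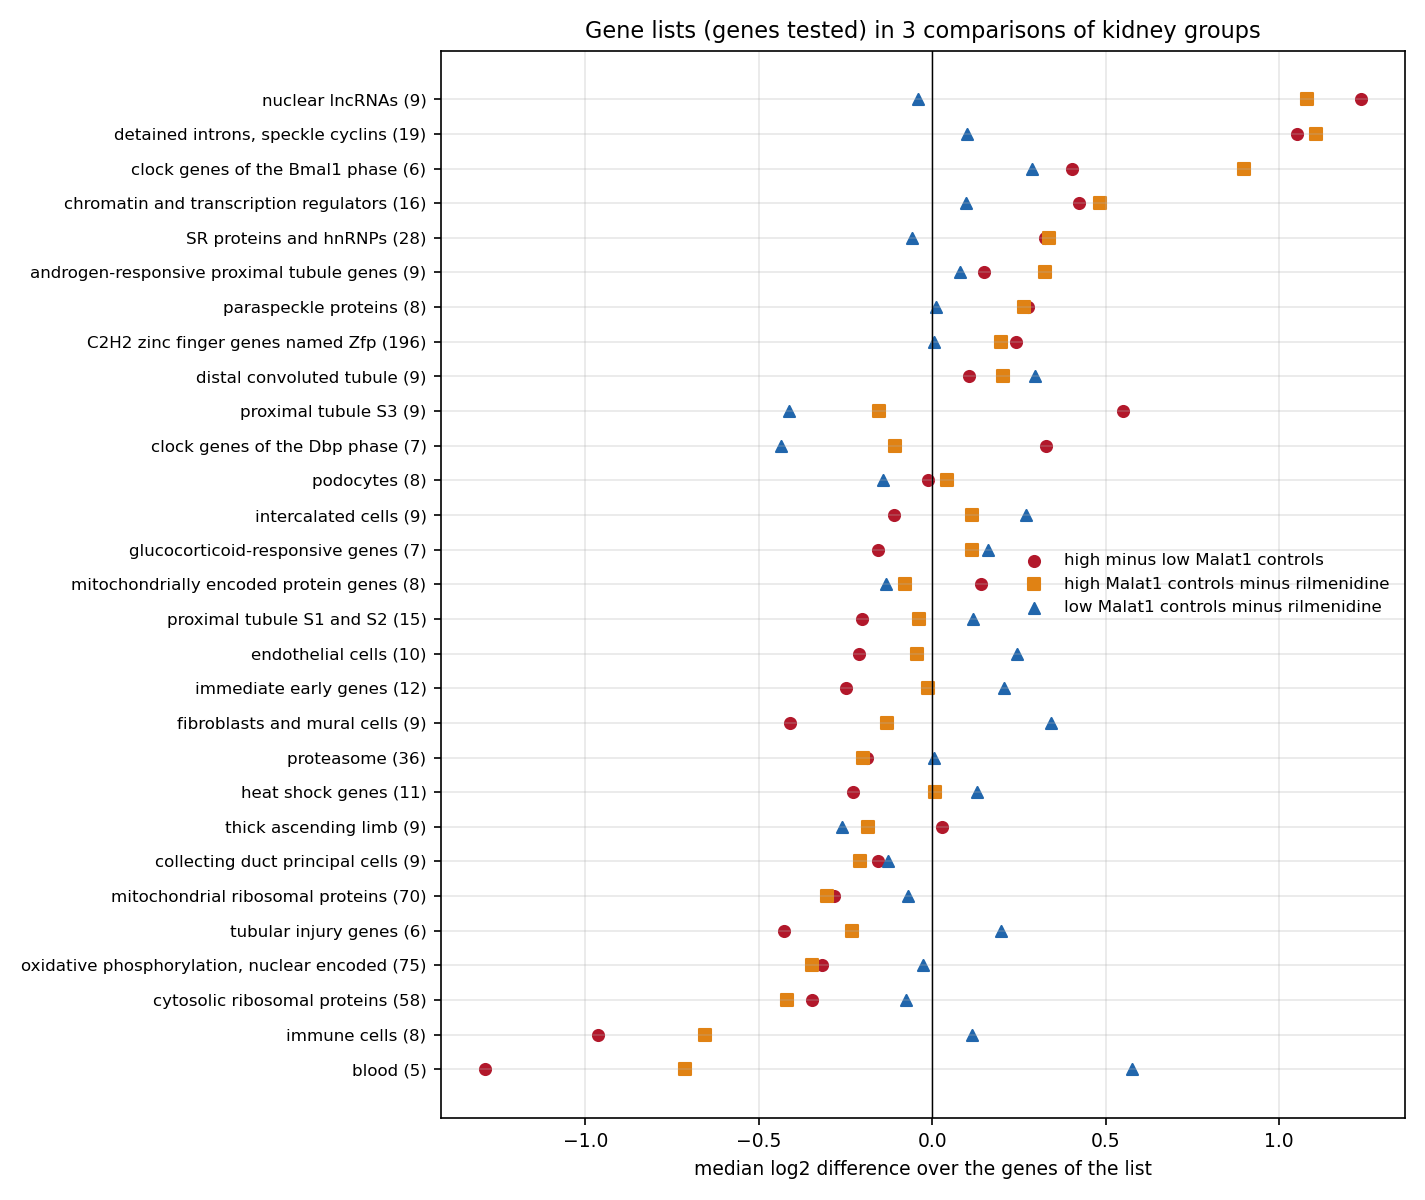
Median log2 difference over the genes of each list with at least 5 genes tested (number in brackets), for high minus low Malat1 controls (circles), high Malat1 controls minus rilmenidine (squares) and low Malat1 controls minus rilmenidine (triangles). The 3 comparisons share kidneys. For nuclear noncoding RNAs (labelled nuclear lncRNAs, Malat1 included) and detained introns, circles and squares lie beyond 1 and triangles near 0, and for immune cells and blood circles and squares lie below −0.6.

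Clock genes were examined because kidneys taken at different hours differ in them. The 6 genes of the Bmal1 phase had a median of 0.74 with 0 apart, and the median was 0.40 among controls. Arntl, which encodes Bmal1, had 10 to 40 normalized CPM in high kidneys, 18 in both low controls and 2 to 12 with rilmenidine. The 7 genes of the opposite, Dbp phase had a median of 0.02 with 0 apart. Among controls their median was 0.33, with Per2 and Per3 apart and higher, beside 5.90% of all genes. Between low controls and rilmenidine kidneys the median was −0.44. Immediate early genes, which respond within minutes to handling, had a median of −0.12 over 12 genes (−0.25 among controls) with 0 apart. Heat shock genes had −0.19 over 11 (−0.23 among controls) with 1 apart and lower, Cryab, beside 1.23% of all genes. The hour of tissue collection is not given in the sources used here, and its part in the result was not tested.

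Genes apart shared structural features that the rule on Malat1 did not name. The following describes protein-coding genes, whose values come from the same kidneys and are not independent of the split. The longest annotated transcript had a median of 4865 nt in the 247 higher genes, 3492 nt in all 9650 tested and 1560 nt in the 113 lower genes. The gene span had medians of 35.1, 26.4 and 9.60 kb, and the number of exons 14, 10 and 6. GC content of the transcript was 43.8, 49.1 and 54.1%. A transcript annotated with a retained intron existed for 76.1% of higher genes, 61.3% of all and 48.7% of lower genes. A run of at least 12 A was present in the longest transcript of 17.4, 12.6 and 7.96%. How these features depend on one another, and on transcript length and GC content, was not tested.

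The trend with transcript length ran through all genes and not through the genes apart alone. When the genes were cut into 10 equal bins by transcript length, the shortest 965 reached 1484 nt, and there the median log2 difference was −0.30, with 4 genes apart and higher and 51 lower. In the longest 965, from 7049 nt, it was 0.25, with 60 higher and 3 lower. Among controls alone these medians were −0.28 and 0.27. Between low controls and rilmenidine kidneys they were −0.01 and −0.03. Spearman's rho between transcript length and difference over 9650 genes was 0.44 over all kidneys, 0.41 among controls and −0.04 between low controls and rilmenidine kidneys, as a description in which genes share libraries and composition. How the length of a transcript bears on its reads in these libraries was not tested. For GC content rho was −0.29, −0.31 and 0.10 in the same order. For the intron share of the gene span rho was 0.11, 0.13 and −0.07. Genes with an annotated retained intron had a median difference of 0.01 over all kidneys, against −0.05 in genes without. In bins by mean level the medians lay between −0.12, at the highest level, and 0.05.

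**Figure D4:**
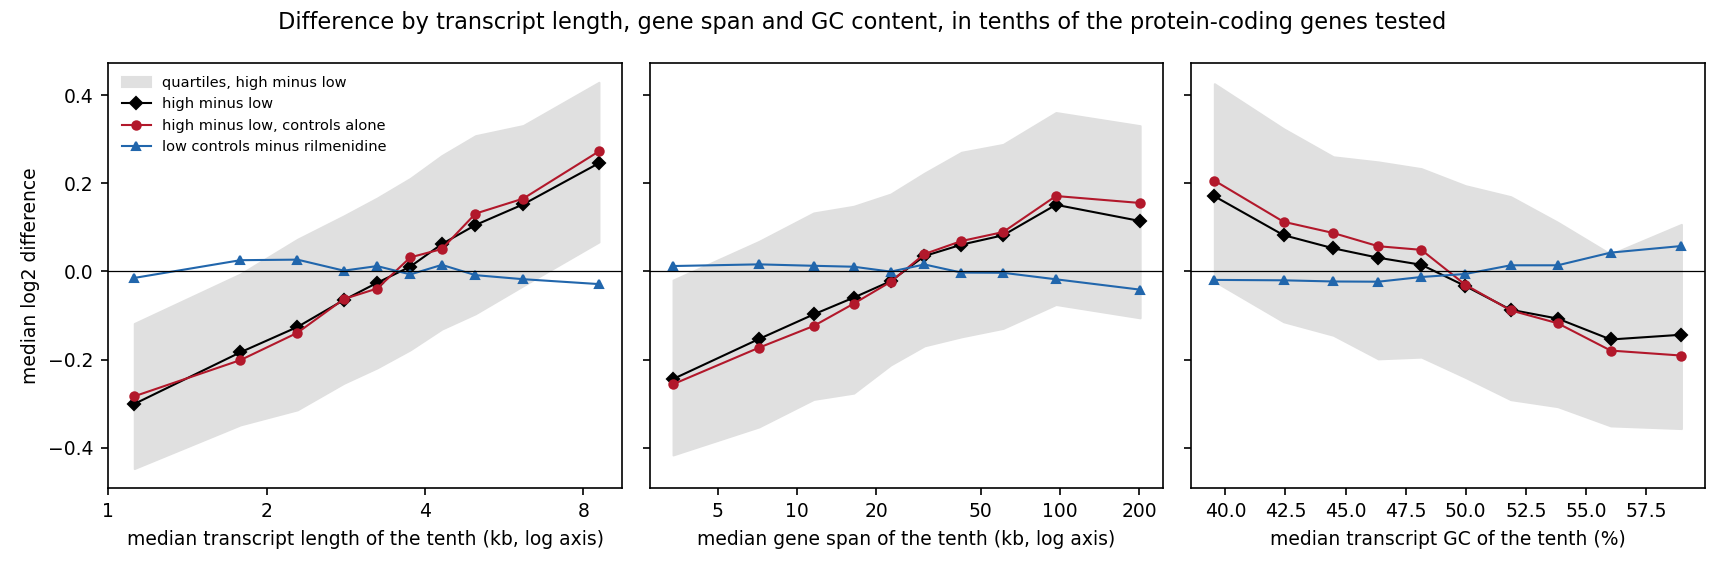
Median log2 difference in 10 equal bins of the tested protein-coding genes ordered by longest transcript (left, kb, log axis), gene span (middle, kb, log axis) and transcript GC content (right, %). Diamonds are high minus low kidneys with quartiles shaded, circles the same among controls alone and triangles low controls minus rilmenidine; diamonds climb from −0.30 to 0.25 with transcript length and fall with GC content, while triangles stay near 0.

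The high kidneys were not alike. Control 1, which had the fewest reads, was nearest to the low group in 140 (50%) of the 280 higher genes and in 55 (44.4%) of the 124 lower genes. Control 5, which had the most Malat1, was farthest from the low group in 118 (42.1%) and 45 (36.3%). The 280 genes together took 2.09, 2.43, 2.51 and 2.81% of counts in high kidneys 1, 3, 4 and 5, against 1.04 to 1.21% in the 6 low kidneys. Each of these genes was chosen for lying higher in every high kidney, so a gap between the groups was built in. Without control 1, 778 genes were apart, against 404 with it.

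The study's own contrast, rilmenidine against control, was fitted with edgeR's quasi-likelihood test on all 10 libraries, and it mixes high and low Malat1 kidneys in the control arm. It gave 0 of 10055 genes (0%) with a Benjamini-Hochberg adjusted p under 0.05 and 1061 (10.6%) with an unadjusted p under 0.05, 445 (4.43%) higher and 616 (6.13%) lower with the drug. DESeq2 gave 60 genes on the same table. With log2 Malat1 CPM as a covariate, the count at unadjusted p fell from 1061 to 311. A covariate of library size in its place gave 432. Malat1 and library size cannot be told apart as covariates in these kidneys. All treated kidneys are low in Malat1, so a Malat1 covariate takes up part of the treatment difference by design. Ogt was named for its difference between the Malat1 groups, so a smaller difference with this covariate was built in. In edgeR's fit the difference, rilmenidine minus control, was −1.46 ± 0.36 on the log2 scale (SE) at an adjusted p of 0.211, and with the covariate it was −0.20 ± 0.22 at an adjusted p of 0.9997. Of the 19 genes of the detained intron list, 17 had an unadjusted p under 0.05 in this contrast and 0 an adjusted one. The list and the kidneys are the same as above, so this count is not independent.

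Treatment genes differed in where the low controls lay. The 3 genes with the smallest p in each direction, chosen after their values were seen, had adjusted p from 0.174 to 0.189 (edgeR). Cryab, a small heat shock protein, had 45.4 to 54.9 normalized CPM in high controls, 56.8 and 66.2 in low controls and 69.3, 107, 111 and 138 with rilmenidine. All 6 controls lay below the treated kidneys, and its log2 difference was −0.23 between high and low controls and −0.73 between low controls and treated kidneys. Gstm1, a glutathione transferase, had 676 to 846 in high controls, 804 and 679 in low controls and 869 to 1743 with rilmenidine, and the high and low controls differed by 0.00. Serpina1d had 25.5 to 49.1, 14.2 and 17.3, and 13.7, 125, 436 and 194, so that rilmenidine 1 lay below every control. It belongs to a family of near-identical copies, which makes its counts uncertain.

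The 3 genes that were lower with rilmenidine were also higher in high than in low controls. Khdc4, an RNA-binding protein of splicing, had 82.0, 115, 117 and 115 normalized CPM in high kidneys 1, 3, 4 and 5, 52.7 and 47.4 in controls 2 and 6, and 28.6 to 40.4 with rilmenidine. The low controls lay between, at 1.06 on the log2 scale under the high controls and 0.57 above the treated kidneys. Irf2bp2, a transcriptional corepressor, differed by 0.43 and 0.51 in these comparisons, and Slc36a1, a lysosomal amino acid transporter, by 0.58 and 0.44. With only 2 low controls against 4 treated kidneys these differences were not tested. Adding log2 Malat1 as a covariate left log2 fold changes of 0.83 for Cryab, 0.79 for Gstm1 and −0.62 for Khdc4, against 0.94, 0.80 and −1.38 without it, and no adjusted p under 0.05.

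**Figure D5:**
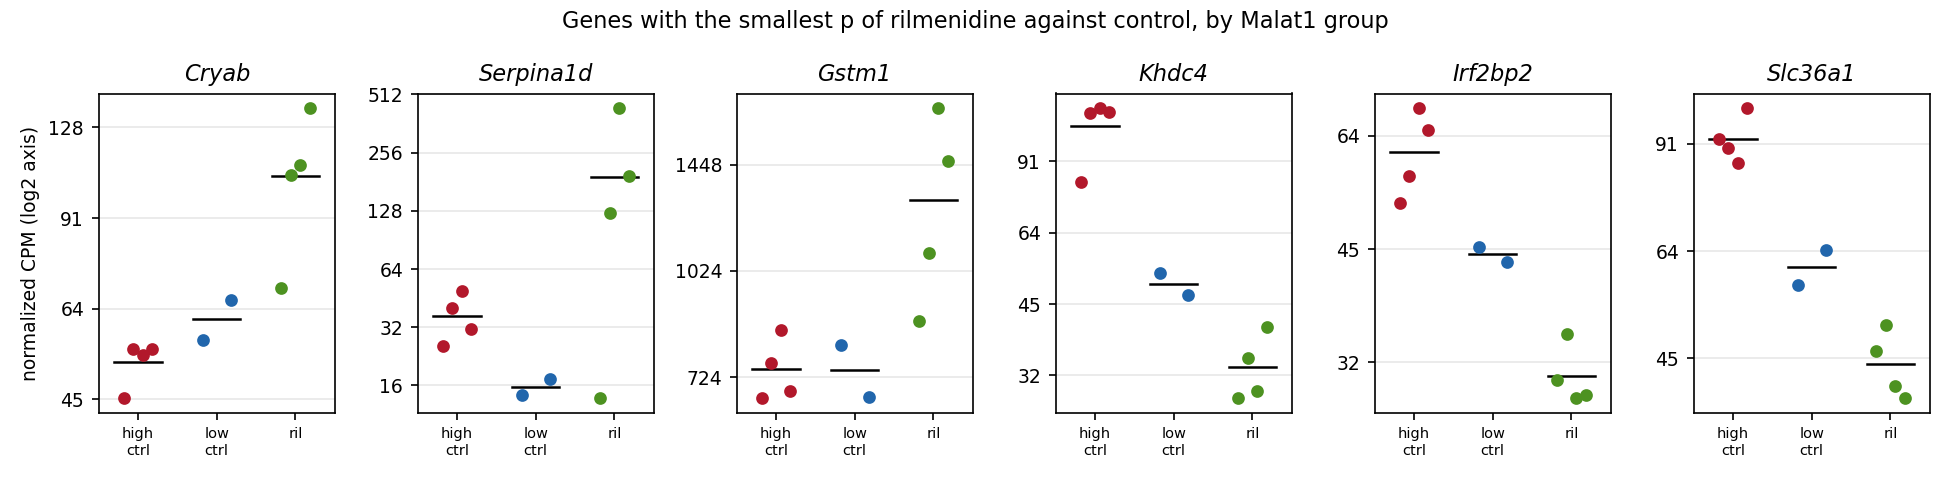
Normalized CPM (log2 axis) in each kidney of the 6 genes with the smallest p for rilmenidine against control, by group: 4 high Malat1 controls (red), 2 low Malat1 controls (blue) and 4 rilmenidine kidneys (green), with bars at group means. In Cryab and Gstm1 the treated kidneys lie above all controls, and in Khdc4, Irf2bp2 and Slc36a1 the low controls lie between the high controls and the treated kidneys.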

How the data were processed

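RNA was measured in 10 mouse kidney libraries, 6 control and 4 rilmenidine, grouped by their labels. Libraries were of the CEL-Seq2 type. Per the submitters' processing notes, the authors deposited raw read counts per Ensembl gene after trimming (Trimmomatic 0.32), mapping (STAR 2.5.2b) to mm10 and counting (featureCounts 1.5). The annotation release, the strand setting and whether molecular identifiers were collapsed are not given in the sources used here, so overlapping genes are uncertain and counts may include amplification copies. Every column was matched to a label. Total counts ranged from 863605 to 3232063, which limits low genes. Libraries came from separate mice, and no pair agreed within sampling noise. Further controls of the study were not analysed here.

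From the deposited counts, genes needed 6 reads or more in 66.6% of the libraries or more, which left 10055, and counts were scaled by the RLE method (edgeR 4.0.16, R 4.3.3). Group differences are differences of mean log2(normalized CPM + 2), with the standard error from the spread within groups. Rilmenidine was tested against control with edgeR's quasi-likelihood test, p-values adjusted by Benjamini-Hochberg over all genes. Alternatives were TMM, CPM of the column sum, other filters, a 2-fold limit, a pseudocount of 0.5, thinning, DESeq2 1.42.0, covariates of log2 Malat1 or library size, the replicate number as a block, and leaving out each library. Limits on receptor gene counts were added after seeing the data. Scripts were tested on simulated data.

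Named genes were those apart with a mean of at least 20 normalized CPM, the 12 in each direction with the largest smaller difference (against low controls or rilmenidine), 3 predicted names in each direction, and up to 4 members of each of 34 lists by level plus up to 6 apart. List members that were not apart, and the genes of the rilmenidine contrast, were named after their values were seen. The split by Malat1, the rules and the lists were chosen with earlier results of these data known. GENCODE M21 (GRCm38) held 42548 of the 43629 genes in the table and gave symbols, coordinates, gene types and transcripts.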

Additional observations from a re-analysis of the deposited data

Results flagged for a closer look

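In groups of 4 or 6 kidneys, 8 values stood farther from the rest of their group than Dixon's test allows at 95%, out of 82 groups of values examined, where chance flags about 1 in 20. In control 2, the control with the highest summed blood markers (8757 normalized CPM), 3 genes of antigen presentation were high: Cd74 at 94.7 normalized CPM against 62.3 in the next kidney, H2-Eb1 at 121 against 75.6, and Ctss at 58.6 against 34.3. In control 5, Snhg11 was high at 123 (next 71.3) and the predicted pseudogene Gm14513 low at 12.6 (next 25.7). In control 1, Cryab was low at 45.4 (next 53.5) and Khdc4 low at 82.0 (next 115). In rilmenidine 2, Crebzf was high at 41.3 (next 30.4).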

How the results depend on the processing

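All 450 values of the 30 named genes moved by less than 1 SD within groups under the alternatives run. Most of these values leave out 1 kidney, which by arithmetic can hardly move a group mean by 1 SD of single kidneys. For such values the limit was nearly met in advance and says little. Of 450 values of gene lists, 436 stayed within 1 SD, 11 moved farther and 3 turned sign. The thick ascending limb turned to 0.0297 among controls alone. Without control 3, immediate early genes turned to 0.0425 (leaving out single kidneys gave −0.176 to 0.0425) and glucocorticoid-responsive genes to 0.203 (−0.126 to 0.203). The 404 genes apart became 96 at 2-fold (89 higher, 7 lower), 717 among kidneys where receptor genes reached 10 CPM, and 675 without the 2 libraries with the most receptor reads; leaving out single kidneys gave 423 to 778, the highest without control 1. Among controls the 960 became 200 at 2-fold, and leaving out single kidneys gave 969 to 1795, with 1545 without control 2 and 1795 without control 6, where 1 low control remains. CPM of the column sum gave 793 higher and 212 lower among controls (78.9% higher, against 61.8%). Fewer kidneys or a higher limit change such counts by construction. For rilmenidine against control, the 0 genes became 241 with no filter on low counts (64 higher), 60 with DESeq2 (15 higher) and, leaving out single kidneys, 0 to 37: 33 when control 2 was dropped, 37 when control 6 was, and 6 when rilmenidine 1 was. The cause was not tested. It stayed 0 with TMM and with the Malat1 or library size covariates. The replicate number as a block gave 3 genes (1 higher), but same-numbered kidneys did not deviate together (correlations 0.08, 0.08, −0.08 and −0.01), so the numbers were not read as pairs. Depth limits genes of few reads, and control 1 is the most shallow library.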

Other observations

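Among the 449 genes with a mean of at least 300 normalized CPM, 16 were apart, 8 in each direction, beside 404 of all 10055 genes (4.02%). The selection was made after the values were seen. Besides genes named above, the higher ones included Slc22a30, an organic anion transporter, with 275 to 701 normalized CPM in high and 139 to 258 in low Malat1 kidneys (log2 difference 1.35, and 1.30 among controls), and Col4a4, a collagen chain of the glomerular basement membrane, with 520 to 866 against 305 to 502 (0.81 and 0.75). The lower ones included enzymes of the proximal tubule. Ass1, which makes argininosuccinate for arginine synthesis, had 612 to 888 against 954 to 1208 (−0.64 and −0.70). Dcxr, a xylulose reductase, had 270 to 335 against 465.9 to 683 (−0.79 and −0.72), and Akr1c21, a hydroxysteroid dehydrogenase, had 1821 to 2293 against 2426 to 3585 (−0.59 and −0.50). Rsrp1, an arginine- and serine-rich protein, had 540 to 684 in high kidneys, 224 to 288 in low controls and 318 to 441 with rilmenidine, so that the low controls lay below the treated kidneys.

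Of 31 tested genes that GENCODE M21 does not list under their identifier, 8 were apart and higher, beside 2.78% of all genes, and 0 lower. The one with the highest difference, ENSMUSG00000089788, had 34.4 to 90.1 normalized CPM in high and 8.64 to 20.4 in low kidneys. Snhg14 and Mir22hg, host genes of small nucleolar RNAs and of a microRNA, had 63.2 to 94.2 against 21.3 to 48.3 and 62.3 to 104 against 26.6 to 43.9. Gm14964, an antisense gene within Nrxn2, had 51.6 to 101 against 17.8 to 29.5.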
